A study of Bos taurus with 10 samples.

Results

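DNA replication and mitosis genes were measured here in epithelial cells of the bovine oviduct isthmus, the tubal segment next to the uterus. The set was given as 40 gene names, and 39 of them are present by name among the 24596 features of the deposited table: 17 replication genes, 3 cyclins of G1 and S phase entry, and 19 mitosis genes. The missing name, CDC45, is carried by a row called CDC45L, which was matched through its description and is given apart. Heifers (Bos taurus) of 2 groups were compared: pregnant animals, each given a transfer of 50 presumptive zygotes made in vitro (5 libraries), and cyclic controls given a sham transfer (5 libraries). The labels used here give no breed, age or day of sampling. They do not say whether the libraries of a group came from different animals, so n is a number of libraries and p-values measure only their spread, which may be technical. The study asked whether early embryos alter the transcriptome of the oviduct that carries them.

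Before a cell divides, the MCM2 to MCM7 helicase is loaded onto replication origins by CDC6 and CDT1 and then switched on with CDC45 and the GINS complex. PCNA, the sliding clamp, holds the polymerases on the template, and ribonucleotide reductase (RRM1 with RRM2) and thymidylate synthase (TYMS) supply the nucleotides. Mitosis follows under cyclin B and CDK1, with Aurora and Polo kinases, kinetochore and checkpoint proteins, and the anaphase-promoting complex with its activator CDC20. In the oviduct epithelium, secretory cells can divide, whereas multiciliated cells have left the cycle, and multiciliated cells reuse part of the mitotic machinery to make basal bodies.

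Values are RPKM (reads per kilobase of a gene and per M reads of a library, M standing for mega), so levels of different genes can be set side by side. Library totals recovered from the table were 17 to 26.1 M reads in pregnant and 9.71 to 18.8 M in cyclic libraries, and cyclic library 4 was the shallowest. At a length of 1 kilobase, a single read was worth 0.103 RPKM in cyclic library 4 and 0.0383 RPKM in pregnant library 5. Marker genes of the labelled epithelium were abundant: 7 secretory genes summed to 1848 to 4470 RPKM in pregnant and 5937 to 12080 RPKM in cyclic libraries, and 6 ciliated cell genes to 295 to 477.6 and 355.2 to 650.5 RPKM. Leukocyte markers (10 genes) summed to 27.17 to 38.97 RPKM in pregnant and 28.83 to 41.11 RPKM in cyclic libraries, stromal markers (8 genes) to 23.32 to 46.66 and 31.35 to 100.1 RPKM, smooth muscle markers (5) to 16.24 to 45.33 and 15.88 to 33.48 RPKM, and endothelial markers (5) to 8.051 to 19.56 and 7.77 to 18.57 RPKM. Erythroid (3) and oocyte or embryo genes (6) stayed at or below 3.044 and 14.84 RPKM in pregnant and 3.377 and 13.32 RPKM in cyclic libraries. The hemoglobin gene HBB reached at most 0.18 RPKM and the zona pellucida gene ZP3 at most 0.079 RPKM in any library. Other genes of these lists were present: 1 erythroid gene (AHSP, mean 1.81 RPKM) and 2 oocyte or embryo genes (OOEP and BTG4, median of their means 5.1 RPKM) reached a mean of 1 RPKM. The share of replication or mitosis transcripts coming from such other cells was not tested, and in bulk tissue fewer dividing cells cannot be told apart from less RNA per cell.

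Most of the set was expressed at a low level. Of the 39 genes, 13 had a mean under 1 RPKM, 21 lay between 1 and 10 RPKM, and 5 reached 10 RPKM or more: CCNB1, PLK1, RRM1, PCNA and MCM7. Among features with a mean of at least 1 RPKM, which were the ones tested, the median level was 3.71 RPKM over 14 replication genes and 2.69 RPKM over 10 mitosis genes, against 11.6 RPKM over all 12834. MKI67, the Ki-67 protein used as a stain for cycling cells, had 0.051, 0.191, 0.226, 0.689 and 0.177 RPKM in pregnant libraries 1 to 5, against 0.35, 0.212, 0.257, 0.132 and 0.686 RPKM in cyclic libraries 1 to 5. Pregnant library 4 and cyclic library 5 were its high libraries, and the groups overlapped. Those values rest on 9 to 131 reads per library, while CENPE, a kinetochore motor, had 3 to 38 reads and TTK, the checkpoint kinase MPS1, 1 to 26.

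**Figure D1:**
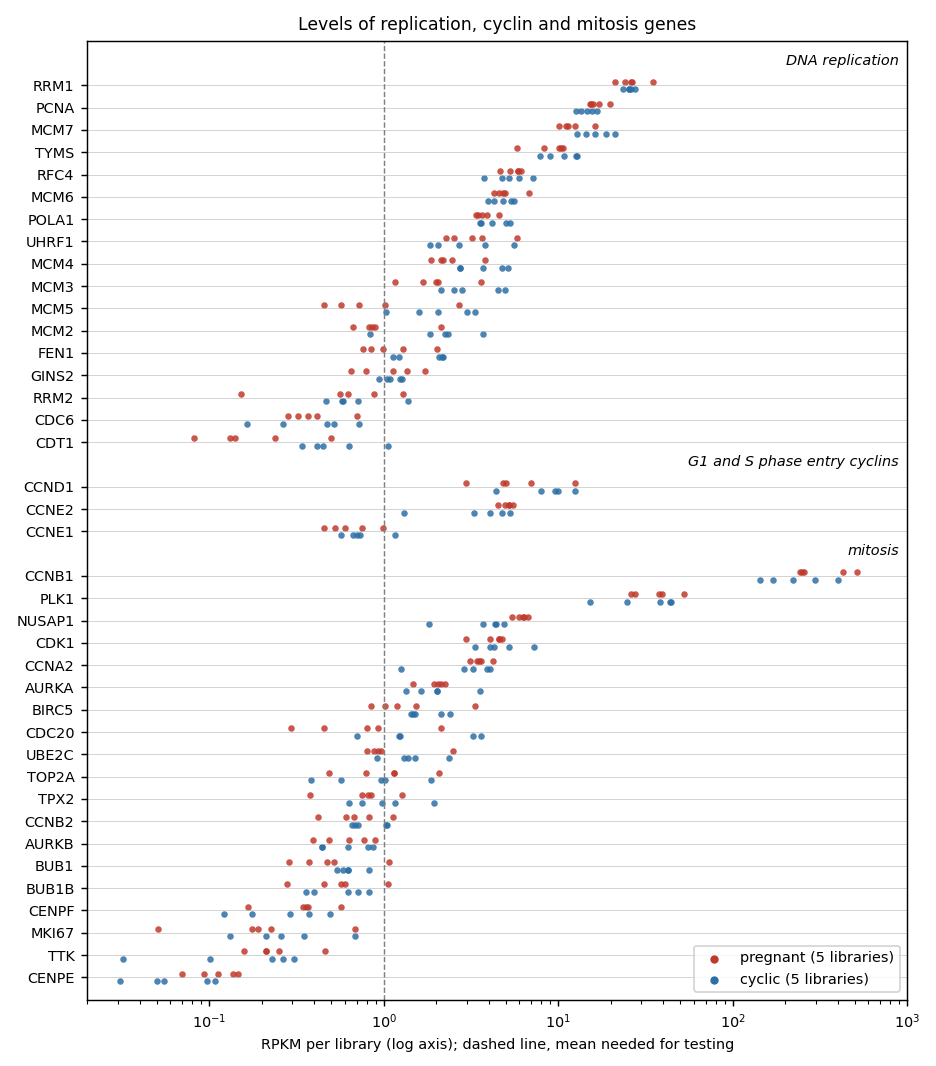
RPKM on a log axis for 39 genes, 1 point per library, pregnant (red) above cyclic (blue), with genes ordered by mean level inside replication, cyclins and mitosis. CCNB1 lies at 143 to 520 RPKM, apart from all other genes, and 13 genes have a mean left of the dashed line at 1 RPKM.

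Across the whole table no gene separated the groups at an adjusted p of 0.05 (limma-trend with Benjamini-Hochberg adjustment, 0 of 12834 or 0%, smallest adjusted p = 0.0934), and voom on recovered reads called 0 as well. At an unadjusted p under 0.05 there were 3534 genes (27.5%), of which 15.7% of those tested were higher and 11.9% lower in pregnant heifers. In the set, 26 of 39 genes were tested and 13 were below the level needed (a mean of 1 RPKM over all libraries). None of the 26 passed after adjustment. At an unadjusted p under 0.05 there were 5 genes (19.2%, against the 27.5% background): MCM2, MCM4, MCM5 and MCM7, lower in pregnant heifers, and NUSAP1, higher. Libraries of the groups did not overlap for 1 of the 26 (NUSAP1), where 6.96% of all tested genes showed no overlap (4.91% higher and 2.05% lower in pregnant heifers).

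Replication and mitosis genes are best read beside each other as medians, which were not tested because the genes were chosen with results of these data known. The median log2 difference (pregnant minus cyclic, of log2(RPKM + 1)) was -0.18 over 14 tested replication genes and 0.04 over 10 tested mitosis genes, against 0.01 over all tested genes. Of the replication genes 5 were higher and 9 lower in pregnant heifers, and of the mitosis genes 5 were higher and 5 lower. The gap between the medians was 0.23 over tested genes and 0.14 with no filter on level. The mean mitosis minus replication deviation varied by 0.12 (SD) between libraries of a group. That SD is on another basis, since it averages all 17 replication and 19 mitosis genes, tested or not. Without cyclic library 4 the gap was 0.11, and without pregnant library 1 it was 0.14 with a replication median of -0.1. The replication median was -0.12 without cyclic library 3 and -0.12 without cyclic library 4.

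**Figure D2:**
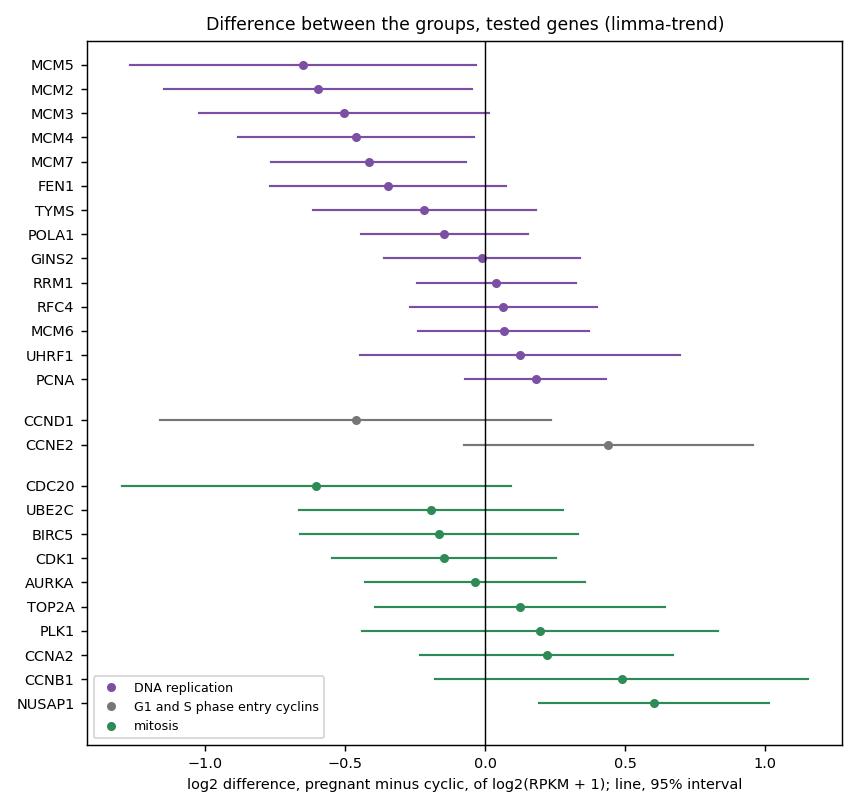
Log2 difference between pregnant and cyclic libraries on the log2(RPKM + 1) scale, with 95% intervals from limma-trend, for the 26 tested genes grouped as replication, cyclins and mitosis. The 5 lowest replication genes are MCM5, MCM2, MCM3, MCM4 and MCM7, and NUSAP1 is the highest mitosis gene.

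The helicase subunits carried the low end of the replication genes. MCM2 had 0.889, 0.663, 0.828, 2.14 and 0.852 RPKM in pregnant libraries 1 to 5, against 1.84, 2.24, 0.836, 2.33 and 3.71 RPKM in cyclic libraries 1 to 5. All pregnant libraries but the fourth lay under 0.9 RPKM, and so did cyclic library 3, so the groups overlapped through these 2 libraries. The means were 1.07 ± 0.6 RPKM in pregnant and 2.19 ± 1.03 RPKM in cyclic heifers (SD, n = 5 each). The log2 difference was -0.6 (SE 0.25, 95% interval -1.15 to -0.05, limma-trend adjusted p = 0.156).

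MCM5 followed the same order, with 0.453, 0.722, 1.02, 2.69 and 0.569 RPKM in pregnant libraries, against 1.59, 2.05, 1.03, 3.02 and 3.34 RPKM in cyclic libraries (log2 difference -0.65, interval -1.27 to -0.03). MCM4 had 1.86, 2.45, 2.12, 3.79 and 2.19 RPKM in pregnant libraries, against 2.74, 3.72, 2.73, 5.16 and 4.75 RPKM in cyclic libraries (log2 difference -0.46, interval -0.89 to -0.04). Without pregnant library 4 every remaining pregnant value of MCM4 was below every cyclic one. MCM7, the most abundant subunit, had 11.4, 10.1, 11.1, 16.2 and 12.5 RPKM in pregnant libraries, against 16.2, 14.5, 12.9, 21.3 and 18.7 RPKM in cyclic libraries (log2 difference -0.42, interval -0.76 to -0.07). Pregnant library 4 again reached the cyclic range, and the other pregnant libraries lay below it. MCM3 averaged 2.1 ± 0.93 RPKM in pregnant and 3.4 ± 1.27 RPKM in cyclic heifers (SD, n = 5 each), and its interval (-1.02 to 0.01 around -0.51) included 0.

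MCM6, which sits in the same ring of 6 subunits, did not share that order. It had 4.32, 6.84, 4.6, 4.94 and 4.86 RPKM in pregnant libraries, against 3.98, 4.3, 5.38, 4.82 and 5.59 RPKM in cyclic libraries. The groups overlapped over nearly their whole range (log2 difference 0.07, interval -0.24 to 0.37, and -0.03 without pregnant library 2). Levels within the ring were uneven too: MCM7 exceeded MCM2 by a median ratio of 13.4 in pregnant and 8.79 in cyclic libraries. The summed secretory markers were also lower in pregnant heifers (3202 ± 1200 RPKM, against 8258 ± 2470 RPKM in cyclic heifers, SD, n = 5 each). Of the 7 genes 6 were lower in pregnant heifers, and OVGP1 made up most of the sum (2050 ± 1163 and 5760 ± 2172 RPKM). PAX8 was level (88.15 ± 5.99 and 87.5 ± 14.9 RPKM, log2 difference 0.02), and EPCAM differed by -0.14 (interval -0.39 to 0.11). The summed ciliated markers were lower as well, at 354.5 ± 72.3 RPKM in pregnant and 496.4 ± 122 RPKM in cyclic heifers. Among them CCDC39 went the other way, at 78.6 ± 16.4 and 42.3 ± 15.7 RPKM (log2 difference 0.96). It was lowest of each group in library 4 (51.8 RPKM in pregnant and 16.4 RPKM in cyclic heifers). By library the ciliated sum, though not each of its genes, went with the other 5 subunits. Of the pregnant libraries it was highest in library 4 (477.6 RPKM, against 295 to 356.4 RPKM). In cyclic heifers it was lowest in library 3 (355.2 RPKM) and highest in libraries 4 and 5 (650.5 and 572.5 RPKM). TUBB4B made up a large part of the sum in pregnant library 4, at 251.8 RPKM, against 60 to 103.3 RPKM in the other pregnant libraries. FOXJ1 was also highest of the pregnant libraries there (79.1 RPKM, against 51.5 to 64.2 RPKM). DNAI1, DNAI2 and DNAH9 (18.9, 48.8 and 27.2 RPKM) lay within the range of the other pregnant libraries, so the high sum rested mainly on TUBB4B. The secretory genes, averaged per gene on the log2 scale, were also highest of the pregnant libraries in library 4 (-0.059, against -0.712 to -0.393) and highest of the cyclic ones in libraries 4 and 5 (0.924 and 0.58), with cyclic libraries 1 and 3 lowest (0.131 and 0.139). The part of these marker classes in the MCM values was not tested.

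**Figure D3:**
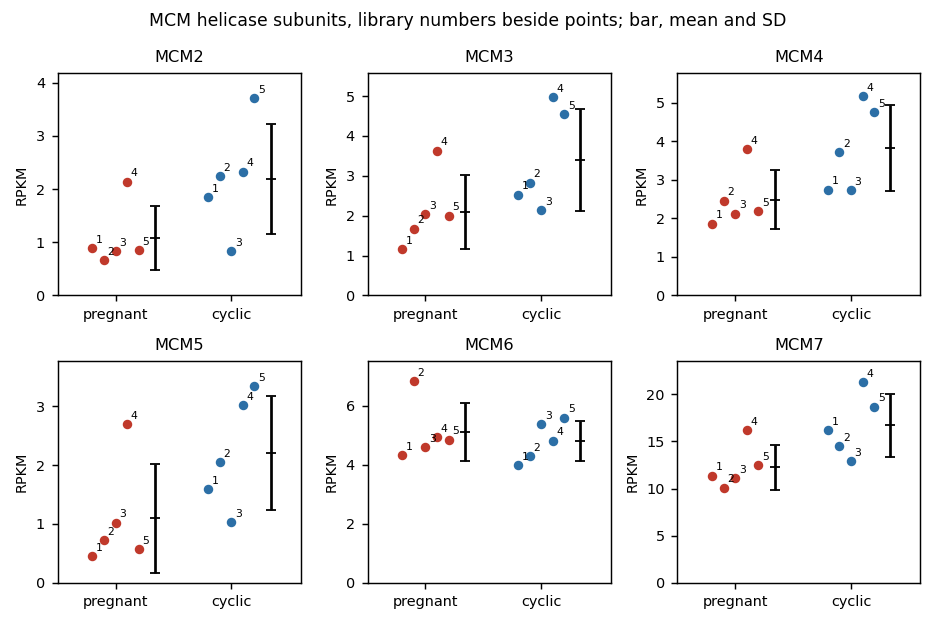
RPKM of the 6 MCM helicase subunits in each library (number beside the point), pregnant left of cyclic, with the mean and SD as a bar. Pregnant library 4 is the highest pregnant value and cyclic library 3 the lowest cyclic value for MCM2, MCM3, MCM4, MCM5 and MCM7, but not for MCM6.

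The loading factors and the other helicase partners were scarce. CDT1 had 0.082, 0.131, 0.14, 0.498 and 0.237 RPKM in pregnant libraries, against 0.45, 0.341, 0.413, 0.636 and 1.06 RPKM in cyclic libraries, on 3 to 42 reads per library. Only pregnant library 4 reached the cyclic values. It was below the filter, and with no filter its log2 difference was -0.37 (limma-trend adjusted p = 0.149). CDC6 averaged 0.42 ± 0.17 RPKM in pregnant and 0.43 ± 0.22 RPKM in cyclic heifers, and GINS2, a subunit of the GINS complex, 1.13 ± 0.43 and 1.12 ± 0.14 RPKM (SD, n = 5 each). The CDC45L row, outside the set by name, averaged 1.57 ± 0.25 and 1.93 ± 0.46 RPKM (log2 difference -0.18, limma-trend adjusted p = 0.437).

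At the fork, PCNA was evenly expressed. It had 17.2, 15.4, 15.2, 19.8 and 15.8 RPKM in pregnant libraries, against 12.6, 14.6, 13.5, 15.7 and 16.7 RPKM in cyclic libraries. The pregnant values were mostly the higher ones but overlapped with cyclic libraries 4 and 5 (log2 difference 0.18, interval -0.07 to 0.43). POLA1, the catalytic subunit of the polymerase that starts new strands, averaged 3.8 ± 0.49 RPKM in pregnant and 4.34 ± 0.79 RPKM in cyclic heifers. RFC4, of the clamp loader, averaged 5.59 ± 0.6 and 5.39 ± 1.29 RPKM. FEN1, the nuclease that trims flaps of lagging-strand fragments, averaged 1.18 ± 0.51 and 1.76 ± 0.53 RPKM (log2 difference -0.35, interval -0.77 to 0.07). UHRF1, which guides maintenance methylation behind the fork, averaged 3.5 ± 1.4 and 3.2 ± 1.55 RPKM (SD, n = 5 each).

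Nucleotide supply was split between abundant and scarce subunits. RRM1, the large subunit of ribonucleotide reductase and the most abundant replication gene, had 26.7, 21.2, 26.2, 35.2 and 24.1 RPKM in pregnant libraries, against 26.2, 25.4, 23.4, 25.3 and 27.7 RPKM in cyclic libraries. Apart from pregnant library 4, all values lay within 21.2 to 27.7 RPKM (log2 difference 0.04, interval -0.24 to 0.32, and -0.06 without that library). RRM2, the small subunit made in S phase, had 0.152 to 1.29 RPKM in pregnant and 0.465 to 1.38 RPKM in cyclic libraries, so RRM1 exceeded it by a median ratio of 34.1 in pregnant and 44 in cyclic libraries. RRM2B, the small subunit used outside S phase, is not in the set and was looked up after the values of RRM2 were seen: it averaged 31.6 ± 3.69 RPKM in pregnant and 25.5 ± 5.56 RPKM in cyclic heifers (SD, n = 5 each). TYMS averaged 9.05 ± 2.05 and 10.6 ± 2.18 RPKM (log2 difference -0.22, interval -0.62 to 0.18).

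Among the cyclins of G1 and S phase entry, CCND1, the D-type partner of CDK4 and CDK6, was the most abundant. It had 5.06, 7.03, 4.85, 12.5 and 2.96 RPKM in pregnant libraries, against 7.98, 9.57, 4.39, 9.99 and 12.5 RPKM in cyclic libraries. Pregnant library 4 was the highest of all and cyclic library 3 the lowest cyclic one (log2 difference -0.46, interval -1.16 to 0.23). The difference was -0.71 without pregnant library 4 and -0.26 without pregnant library 5. CCNE2, an E-type partner of CDK2, had 4.51 to 5.54 RPKM in pregnant and 1.31 to 5.28 RPKM in cyclic libraries, with the low end set by cyclic library 4 (log2 difference 0.44, or 0.2 without that library). CCNE1 averaged 0.67 ± 0.21 RPKM in pregnant and 0.77 ± 0.23 RPKM in cyclic heifers (SD, n = 5 each).

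Mitosis genes were divided between CCNB1 and PLK1 on one side and 17 scarce genes on the other. CCNB1, cyclin B1, had 520, 258, 428, 245 and 251 RPKM in pregnant libraries, against 223, 399, 143, 171 and 298 RPKM in cyclic libraries. The groups overlapped, with pregnant library 1 highest and cyclic library 3 lowest (log2 difference 0.49, SE 0.31, interval -0.18 to 1.15, limma-trend adjusted p = 0.31). It was 0.32 without either of these libraries in turn, and 0.15 with array weights, which weight libraries by their agreement with the rest. It ranked 181 of 24596 features by mean RPKM and held 76.2% to 87.9% of the summed RPKM of the mitosis genes in a library, on 2435 to 13191 reads.

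PLK1, Polo-like kinase 1, which drives mitotic entry and centrosome maturation, had 52.8, 26.3, 37.7, 39.4 and 27.7 RPKM in pregnant libraries, against 38.2, 44, 15.2, 24.9 and 44.1 RPKM in cyclic libraries. Its highest and lowest libraries were those of CCNB1, and the groups overlapped (log2 difference 0.2, interval -0.44 to 0.83). The difference turned to -0.05 without cyclic library 3 and to -0.19 with array weights. The other 17 mitosis genes did not exceed 7.28 RPKM in any library. CDK1, the kinase that cyclin B1 activates, had 2.95, 4.08, 4.6, 4.79 and 4.58 RPKM in pregnant libraries, against 3.35, 4.09, 7.28, 4.27 and 5.26 RPKM in cyclic libraries. CCNB1 exceeded CDK1 by 51.1 to 176 times in pregnant and 19.6 to 97.5 times in cyclic libraries, and CDK1 was lowest in pregnant library 1 and highest in cyclic library 3, where CCNB1 was highest and lowest. CCNB2, the related cyclin B2, had 0.423 to 1.12 RPKM in pregnant and 0.661 to 1.05 RPKM in cyclic libraries.

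**Figure D4:**
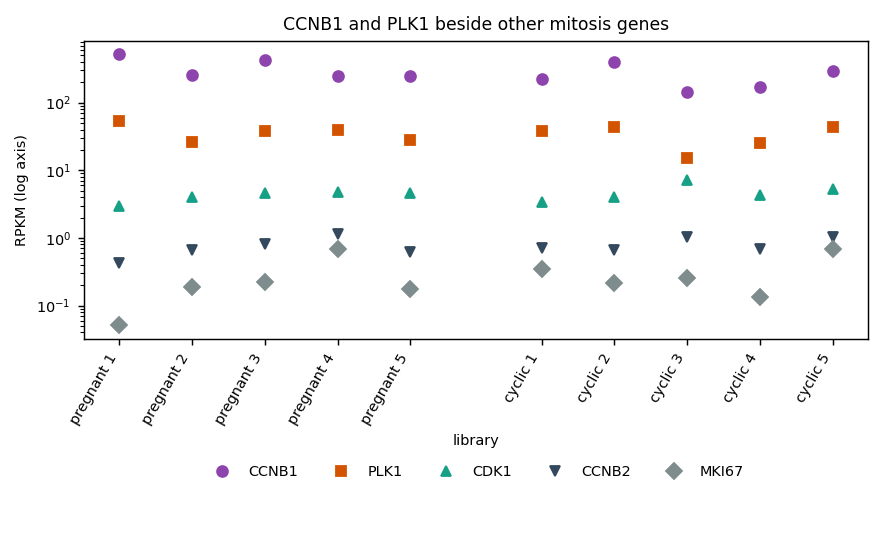
RPKM on a log axis of CCNB1, PLK1, CDK1, CCNB2 and MKI67 in the 5 pregnant and 5 cyclic libraries. CCNB1 and PLK1 are both highest in pregnant library 1 and lowest in cyclic library 3, while CDK1 is lowest in pregnant library 1 and highest in cyclic library 3.

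In the RefSeq annotation of assembly ARS-UCD2.0, which may not be the build used by the authors, CCNB1 lies between CENPH, a kinetochore gene, and SLC30A5, a zinc transporter. CENPH averaged 27.7 ± 5.67 RPKM in pregnant and 15.8 ± 5.75 RPKM in cyclic heifers, and SLC30A5, looked up after CCNB1 was seen to be high, 151.5 ± 36.7 and 98.8 ± 37.8 RPKM (SD, n = 5 each). Both were below CCNB1 in every library. CCNB1 was 1.79 to 2.77 times SLC30A5 in pregnant and 1.76 to 3.08 times in cyclic libraries, a narrower range than that of its ratio to CDK1. Its ratio to the other neighbour, CENPH, was 8.68 to 16.7 in pregnant and 7.05 to 29.9 in cyclic libraries. Its ratio to PLK1 was 6.22 to 11.4 and 5.82 to 9.39. Whether reads of a neighbour entered its value was not tested.

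NUSAP1, which binds spindle microtubules, was the only gene of the set whose groups did not overlap. It had 6.3, 6.34, 6.68, 5.46 and 5.93 RPKM in pregnant libraries, against 3.73, 4.42, 4.9, 1.81 and 4.35 RPKM in cyclic libraries. The lowest pregnant value was above the highest cyclic one, and cyclic library 4 lay well under its group. The log2 difference was 0.6 (SE 0.19, interval 0.19 to 1.02, limma-trend adjusted p = 0.1), and 0.42 without cyclic library 4.

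The remaining mitosis genes of the set were low in both groups. TOP2A, the topoisomerase that untangles sister chromatids, had 0.488, 1.15, 1.15, 2.08 and 0.789 RPKM in pregnant libraries, against 0.964, 0.569, 1.02, 0.382 and 1.86 RPKM in cyclic libraries. Pregnant library 4 and cyclic library 5 stood highest, as for MKI67, and the groups overlapped (log2 difference 0.12, interval -0.39 to 0.64, and -0.02 without pregnant library 4). CDC20 averaged 0.92 ± 0.72 RPKM in pregnant and 2 ± 1.32 RPKM in cyclic heifers (log2 difference -0.6, interval -1.3 to 0.09). UBE2C, the ubiquitin-conjugating enzyme of the anaphase-promoting complex, averaged 1.22 ± 0.73 and 1.49 ± 0.53 RPKM, and BIRC5, survivin of the chromosomal passenger complex, 1.59 ± 1.02 and 1.79 ± 0.44 RPKM (SD, n = 5 each). AURKA, the spindle-pole Aurora kinase, averaged 1.97 ± 0.3 and 2.12 ± 0.85 RPKM, and CCNA2, the cyclin of S and G2 phase, 3.59 ± 0.4 and 3.08 ± 1.13 RPKM. The checkpoint kinases BUB1 and BUB1B, the passenger kinase AURKB, the spindle factor TPX2 and the kinetochore protein CENPF had means of 0.36 to 0.81 RPKM in pregnant and 0.29 to 1.09 RPKM in cyclic heifers. None of these 5 reached the level needed for the main test.

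Variation inside the groups followed single libraries. Pregnant library 4 held the highest of the 10 values for 14 of the 39 genes, among them 10 of 19 mitosis genes, and the lowest for none. Pregnant library 1 held the lowest value for 14 genes. Averaged over the mitosis genes, the deviation from the gene means was 0.287 in pregnant library 4 and 0.238 in cyclic library 5 (log2 scale). The other 8 libraries lay between -0.178 and 0.039. Replication genes were also high in those 2 libraries (0.27 and 0.331). Cyclic library 4 was discordant: MCM2, MCM3, MCM4, MCM5 and MCM7 averaged 0.609 above their means there, whereas the mitosis genes averaged 0.178 below theirs. These 5 subunits did not stand for all replication genes in cyclic library 4. The 17 replication genes of the set averaged 0.199 there, and the 45 further replication genes given below averaged -0.113. That library was the shallowest and gave the lowest value for 6 of 19 mitosis genes. In pregnant library 4 the smooth muscle markers also summed to 45.33 RPKM, against 16.24 to 22.4 RPKM in the other pregnant libraries, and the endothelial markers to 19.56 RPKM, against 8.051 to 13.07 RPKM. Their part in the mitosis values was not tested.

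**Figure D5:**
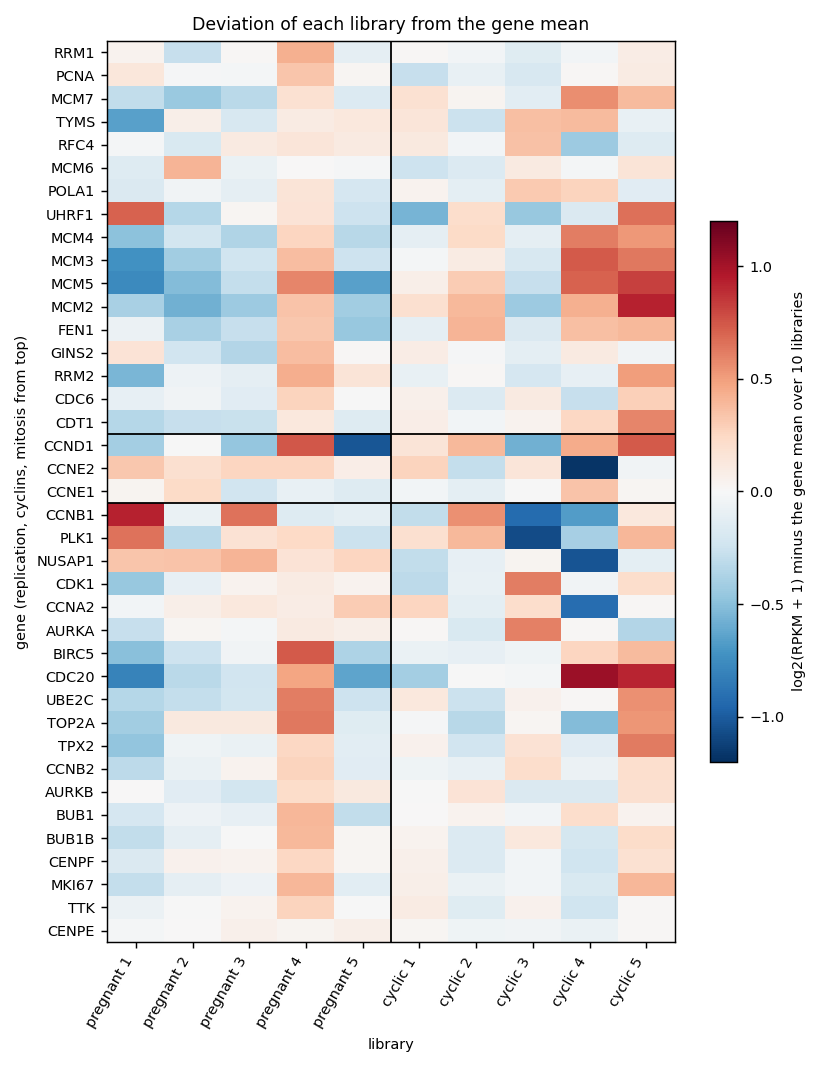
Deviation of log2(RPKM + 1) from the gene mean over 10 libraries, genes in rows (replication, cyclins, mitosis from the top) and libraries in columns, pregnant left of cyclic. Pregnant library 4 and cyclic library 5 are red in most rows, with averages of 0.287 and 0.238 over the mitosis genes.

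Of the 10 libraries left out in turn, cyclic library 3 was the one whose absence changed the calls of the set. Without it, MCM2 (log2 difference -0.78, limma-trend adjusted p = 0.0411) and NUSAP1 (0.69, adjusted p = 0.0398) passed, so 2 of 26 genes were called, where 17.2% of all tested genes were. Without pregnant library 4 none of the 26 passed, where 0.436% of all tested genes did. With array weights, in a limma fit without the trend, 9 of 26 were called against 37.3% of all tested genes. Of these, 6 were replication genes, all lower in pregnant heifers (MCM2, MCM3, MCM4, MCM5, MCM7 and FEN1). CCND1 was also lower, and CCNE2 and NUSAP1 were higher.

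Of 45 further replication genes 40 were tested and 0 passed. At an unadjusted p under 0.05 there were 7 higher and 5 lower in pregnant heifers (30%, near the background of 27.5%), and the median log2 difference was 0.06. The groups did not overlap for 3 of the 40 (7.5%, near the background of 6.96%). POLE2, a subunit of the leading-strand polymerase, averaged 9.72 ± 1.82 RPKM in pregnant and 4.97 ± 2.01 RPKM in cyclic heifers (SD, n = 5 each; log2 difference 0.91, limma-trend adjusted p = 0.0952), with no overlap between the groups. LIG1, the ligase that joins lagging-strand fragments, averaged 4.48 ± 0.85 and 6.65 ± 1.01 RPKM (log2 difference -0.48), with no overlap in the other direction. PRIM2, the large primase subunit, named after its values were seen because it also had no overlap, averaged 11.3 ± 0.27 and 14 ± 1.75 RPKM (-0.28). POLD1, the catalytic subunit of the lagging-strand polymerase, RFC2 of the clamp loader and RPA2, which binds single-stranded DNA, were the other 3 lower at an unadjusted p under 0.05, likewise named after their values were seen, with log2 differences of -0.46, -0.3 and -0.26. The origin recognition subunits ORC4 and ORC2, the fork protection gene TIPIN and the GINS subunit GINS1 had log2 differences of 0.57, 0.36, 0.35 and 0.34.

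Of 49 further mitosis genes 24 were tested and 0 passed, with 5 higher and 1 lower at an unadjusted p under 0.05 (25%, against the background of 27.5%) and a median of 0.06. SMC4, a core condensin subunit, averaged 5.87 ± 0.69 RPKM in pregnant and 2.81 ± 1.58 RPKM in cyclic heifers (log2 difference 0.96, limma-trend adjusted p = 0.0955), with no overlap. SMC4 was the only 1 of the 24 without overlap (4.17%, against the background of 6.96%). CDC27 of the anaphase-promoting complex, CENPH, the condensin subunit SMC2 and the spindle protein HMMR had log2 differences of 0.64, 0.86, 0.52 and 0.44. For each of POLE2, SMC4, CDC27, CENPH, SMC2 and HMMR, cyclic library 4 held the lowest value, as it did for NUSAP1. ANLN, the cytokinesis scaffold anillin, averaged 57.7 ± 11.9 RPKM in pregnant and 189.5 ± 190.8 RPKM in cyclic heifers. Its cyclic values were 521 RPKM in library 1, and otherwise 44.6 to 162 RPKM, and its log2 difference of -1.23 went to -0.74 without that library. Stromal markers also summed to 79.65 RPKM in cyclic library 1, second to cyclic library 4 (100.1 RPKM), where SPARC alone had 79.6 RPKM. Averaged per gene on the log2 scale, they were highest in cyclic library 1 (0.91, against 0.45 in cyclic library 4). The part of stromal cells in the ANLN value was not tested.

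Among 30 genes of cell cycle control 28 were tested and 0 passed, with 2 higher and 3 lower at an unadjusted p under 0.05 (17.9%, against the background of 27.5%, median log2 difference -0.07). CDKN2D, an inhibitor of CDK4 and CDK6, averaged 1.16 ± 0.38 RPKM in pregnant and 1.93 ± 0.09 RPKM in cyclic heifers (SD, n = 5 each; log2 difference -0.46, limma-trend adjusted p = 0.0993), with no overlap. The groups also did not overlap for LIN52, named after its values were seen and higher in pregnant heifers (log2 difference 0.11). These genes were 7.14% of the 28, near the background of 6.96%. CDKN1A, the p21 inhibitor, averaged 10.9 ± 1.01 and 16.2 ± 4.51 RPKM (log2 difference -0.48). CCND3 differed by -0.44, the retinoblastoma gene RB1 by 0.38, and LIN54 and LIN9, subunits of a complex that represses or activates cell cycle genes, by 0.64 and 0.34. The 9 multiciliogenesis genes related to the cycle machinery, all tested, gave 0 calls and 1 higher and 1 lower gene at an unadjusted p under 0.05 (22.2%). CCNO, a cyclin of basal body amplification, averaged 2.67 ± 2.16 and 5.19 ± 1.73 RPKM (log2 difference -0.88), and GMNC, a geminin relative that starts the program, 7.47 ± 2.62 and 4.47 ± 1.39 RPKM (0.62). PLK4, the centriole duplication kinase, CDC20B, CEP152 and MCIDAS had log2 differences of 0.41, -0.66, 0.1 and -0.21.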

How the data were processed

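Total RNA was extracted with Trizol, and stranded mRNA libraries were made after oligo-dT selection, per the labels' protocols. The authors deposited 1 table of expression values in 10 libraries. Its values behaved as RPKM, although per the file headers they are only called expression. Not given in the sources used here were the aligner, counter, build, annotation and use of strand. RPKM steps gave whole reads (tolerance 0.02 reads) for 12790 of 12834 tested features (99.7%), and for 0.2% of 500 features with jittered values. These reads supplied library totals and the reads behind a value.

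The fit was limma-trend (limma 3.58.1, R 4.3.3) on log2(RPKM + 1), group as the only term, for features with a mean of at least 1 RPKM, with Benjamini-Hochberg adjustment over all tested features. Differences are pregnant minus cyclic and understate the change of low genes. Both the recovery and the fit were tested on simulated data. Figures were drawn with matplotlib 3.10.9, and tables were made with pandas 2.3.3 and numpy 2.4.6 under Python 3.11.15.

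The set, the lists and the tests were chosen with earlier results of these data known. Genes shown in every library were those with an unadjusted p under 0.05 or no overlap, the most abundant of each class, and MCM2, MCM4, MCM7, PCNA, MKI67, TOP2A and NUSAP1. MCM6, CDT1, CDK1 and PLK1 were added after their values were seen. Of each pathway list up to 6 genes of smallest p were named. The alternatives were a pseudocount of 0.1, no filter, array weights, median-ratio scaling, a library number block, voom on recovered reads and leaving out each library. The array weights fit used limma without the trend. Names absent from the table were matched through its descriptions, and INCENP, DEUP1 and HBA were not matched. Promoter motifs and sequences were not used here.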

Additional observations from a re-analysis of the deposited data

Results flagged for a closer look

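In 8 of 78 groups of 5 values, 1 library lay far from the rest, its gap to the nearest other value being over 0.71 of the group's range. For independent groups of normally distributed values, about 1 in 20 (3.9 of 78) would be singled out by chance. Here the groups share the same 10 libraries and the values are RPKM without a log, so that number is only a rough guide. Of the 8, 5 were pregnant library 4. There, MCM2 stood at 2.136 RPKM (0.663 to 0.889 RPKM in the other pregnant libraries), MCM5 at 2.694 RPKM (0.453 to 1.02 RPKM), MKI67 at 0.689 RPKM (0.051 to 0.226 RPKM), BIRC5 at 3.355 RPKM (0.841 to 1.534 RPKM) and UBE2C at 2.513 RPKM (0.806 to 0.97 RPKM). MCM6 stood at 6.837 RPKM in pregnant library 2 (4.317 to 4.945 RPKM in the others). In cyclic heifers, RRM2 stood at 1.383 RPKM in library 5 (0.465 to 0.709 RPKM in the others) and CCNE1 at 1.156 RPKM in library 4 (0.572 to 0.735 RPKM in the others).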

How the results depend on the processing

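The count of called genes over the whole table, 0, became 4789 with array weights, 56 without pregnant library 4 and 2213 without cyclic library 3 (0 to 2213 over the fits without 1 library), and it was 0 in the other 13 settings. The count of called genes in the set, 0, became 9 with array weights and 2 without cyclic library 3 (0 to 2 without 1 library), and was 0 in the other 14. The cause was not tested, and the array weights fit also left out the trend, so weights were not its only change. The median log2 difference ran from -0.24 to -0.1 for replication genes and from -0.04 to 0.09 for mitosis genes over 16 settings, and the gap between them from 0.11 (without cyclic library 4) to 0.32 (without cyclic library 5). Of the 26 tested genes, 8 changed sign in some setting and 18 did not. With array weights RRM1 turned to -0.04, PLK1 to -0.19, UHRF1 to -0.23 and AURKA to 0.15. Over the fits without 1 library RRM1 ran from -0.062 to 0.114 and TOP2A from -0.019 to 0.273, both turning negative without pregnant library 4, and PLK1, MCM6, RFC4, UHRF1, AURKA and GINS2 also changed sign. MCM2, MCM4, MCM5, MCM7, NUSAP1, PCNA, CCND1 and CCNB1 kept their sign in all 16 settings. With a pseudocount of 0.1, MCM2 differed by -0.94 (limma-trend adjusted p = 0.157). Over its settings the adjusted p ran from 0.00536 (limma with array weights, without the trend) to 0.286 (limma-trend without cyclic library 5). CCND1 ran from -0.85 (array weights, adjusted p = 0.0202, limma without the trend) to -0.26 (without pregnant library 5). CCNB1 ran from 0.15 (array weights) to 0.69 (without cyclic library 2).

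The library numbers gave little sign of a pairing. Deviations of same-numbered libraries correlated at -0.34 to 0.28, and only 1 of 5 pregnant libraries matched its own number best. These correlations cannot exclude a pairing whose effect is small beside the other variation. The replicate block gave 0 calls over the whole table and 0 in the set, and changed no call. TTK (1 to 26 reads per library) and CENPE (3 to 38 reads) were below the level tested, and single reads set their values in the thinnest libraries.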
